A study of Mus musculus with 24 samples.

Results

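The comparison was between primary myoblasts (PMs) silenced for Tead1 and Tead4 (siTead1/4) and PMs given a control siRNA (siControl), both at differentiation day 6. Its members are the 4 libraries named for this cell type, this day and these siRNAs, 2 per group, out of 24 libraries in the series, and all genes of the table were examined in them. PMs are muscle progenitors isolated from young C57BL/6 mice (C57/B6 in the labels). The control is called siLuc in the library names and a non-targeting siRNA in the methods of the study, and which of these it was is not settled here. Both groups received the same transfection and were then moved to medium low in horse serum, in which myoblasts stop dividing, fuse and form myotubes. Silencing used a pool of siRNAs against Tead1 together with a pool against Tead4, delivered before differentiation began, and day 6 is the latest time after transfection in the series. The other libraries of the series are PMs at day 0 and day 3 and C2C12 cells, a mouse myoblast line of C3H origin, at the same 3 days, each with the same 2 siRNA groups in 2 biological replicates. The labels do not say whether the replicates came from separate animals or from separate cultures of the same cells, so p-values measure the spread between these samples only.

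Tead proteins are transcription factors that bind the MCAT motif through a shared TEA domain and need a cofactor, such as Yap, Taz or a Vgll protein, to act on transcription. Yap and Taz are the outputs of the Hippo kinase cascade and link Tead activity to cell density, stretch and growth. MCAT motifs were first described in promoters of muscle genes, and a differentiating myotube turns on developmental myosins first and the adult fast and slow myosins later.

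The 4 libraries held 33856925 and 34450979 counts on genes in siControl cells and 37432517 and 35069611 in siTead1/4 cells. Levels are given as CPM, the usual unit of counts scaled to a common library size after TMM normalization, and a fold change is siTead1/4 over siControl on the log2 scale, with its SE from the fit. The log2 CPM of replicates correlated across genes at 0.988 in siControl and 0.989 in siTead1/4 cells, and no library stood apart. The cultures expressed the markers of myotubes. The 10 myotube markers summed to 40800 and 46600 CPM in siControl and to 39870 and 41320 CPM in siTead1/4 libraries, and none of the 10 was called in either direction. These RNA levels do not measure fusion.

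The silenced genes were examined first. Tead4 mRNA stood at 155 and 166 CPM in the siControl libraries and at 38.8 and 56.7 CPM in the siTead1/4 libraries. The groups did not overlap, and Tead4 was reduced with a log2 fold change of -1.75 (SE 0.17, adjusted p = 0.002 by the quasi-likelihood test of edgeR with Benjamini-Hochberg adjustment). Tead1 stood at 269 and 167 CPM in siControl and at 135 and 68.3 CPM in siTead1/4 cells. Both silenced libraries were below both controls, but the controls themselves differed widely. The log2 fold change of -1.10 (SE 0.31) did not pass the edgeR test (adjusted p = 0.14). Replicate 1 was the higher in both groups, and the labels do not say whether a replicate number marks a shared batch. DESeq2 without shrinkage gave Tead1 an adjusted p of 0.012. At day 3 the log2 fold changes were -2.58 for Tead4 and -1.68 for Tead1, and both were called there.

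Of the 2 Tead genes that the siRNAs did not target, 1 rose. Tead3 increased from 43.5 and 59.7 CPM to 101 and 106 CPM (log2 fold change 1.005, SE 0.20, adjusted p = 0.039), with both silenced libraries above both controls. Tead2 measured 62.2 and 64.2 CPM in siControl and 49.6 and 56.7 CPM in siTead1/4 cells and was not called (adjusted p = 0.57). None of the cofactors was called. Yap1 ranged from 138 to 144 CPM over the 4 libraries and Wwtr1, which encodes Taz, from 311 to 352 CPM. Vgll2, a cofactor enriched in muscle, had 30.9 and 40.7 CPM in siControl and 46.5 and 59.9 CPM in siTead1/4 cells, a difference that did not pass the test (log2 fold change 0.57, adjusted p = 0.22), while Vgll3 and Vgll4 gave log2 fold changes of -0.03 and 0.24. Tead3 lost its call without each of the 4 libraries in turn, at log2 fold changes of 0.80 without siControl replicate 1, 1.25 without siControl replicate 2, 1.04 without siTead1/4 replicate 1 and 0.96 without siTead1/4 replicate 2.

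**Figure D1:**
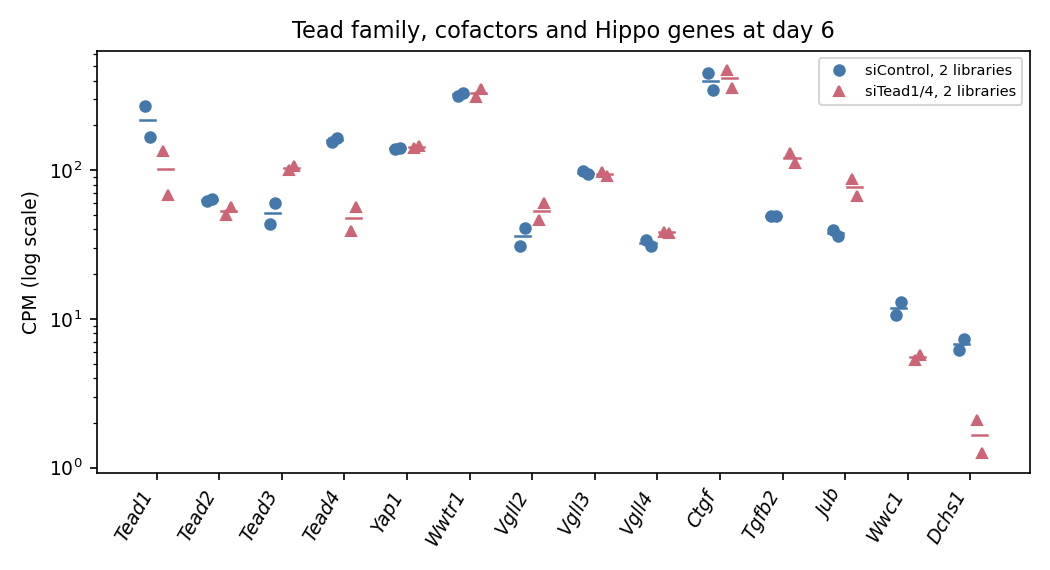
CPM on a log scale of Tead genes, their cofactors and genes linked to the Hippo pathway in the 2 siControl (circles) and 2 siTead1/4 (triangles) libraries of PMs at day 6. Bars are the means of 2 libraries. Tead4 fell to 38.8 and 56.7 CPM and Tead3 rose to 101 and 106 CPM, while Yap1 stayed between 138 and 144 CPM.

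The promoter of Tead3 is shown because this gene rose when its relatives were silenced, and because it holds copies of the core of the motif that Tead proteins bind. The motif searched was CATTCC on either strand, where GGAATG is the same site on the other strand. The study gives the full MCAT motif as CATTCC with A or T as the next base. No match marked in the promoters printed here has A or T there, so none is a full MCAT motif. In capitals are its matches in the RefSeq promoter window chr17:28350551-28350850 of GRCm38.p6 (minus strand), which runs from 250 bases before to 50 bases after a Tead3 start site. The window is written 5′ to 3′ in the direction of the gene and holds 3 matches.
Tead3: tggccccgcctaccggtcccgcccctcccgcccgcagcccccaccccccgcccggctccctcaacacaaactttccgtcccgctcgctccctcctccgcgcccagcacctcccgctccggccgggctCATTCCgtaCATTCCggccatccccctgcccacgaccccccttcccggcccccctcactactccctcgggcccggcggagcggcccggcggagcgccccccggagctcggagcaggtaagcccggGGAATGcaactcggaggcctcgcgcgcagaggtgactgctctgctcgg
Among all tested genes, 11841 of 16144 had a window in the RefSeq table, and 12.6% of their 15111 windows held the motif. A window was found for 57 of the 75 genes called up and for 36 of the 45 called down, and 18.2% of the 77 windows of the former and 14.9% of the 47 windows of the latter held the motif. Fewer than 80% of the genes called up and of all tested genes had a window, so a comparison of these shares is void. A match is a stretch of letters and not a measured binding site.

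Few genes were called at day 6. Of 16144 genes tested, 75 were called up (0.465%) and 45 called down (0.279%), a call being an adjusted p under 0.05 together with a log2 fold change beyond 1 in either direction. Their median log2 fold change was 1.61 for the genes called up and -1.96 for those called down. Both lie beyond 1 by the rule of the call, and the median over all tested genes was 0.001. All 120 had both silenced libraries on the same side of both control libraries, a pattern that 18.5% of all tested genes showed as higher and 18.2% as lower. A call favours such separation, so this count is no separate evidence. By gene type, 73 of the 75 and 45 of the 45 encode proteins. At an adjusted p under 0.05 without regard to size there were 203 genes, 129 higher and 74 lower. Of the genes called up, 4 had at most 3 counts in each control library, among them Vwc2, with 0 counts in both and 0.522 and 0.653 CPM in the silenced libraries, which is at least 6.32-fold higher against a floor of 3 counts per library.

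The calls moved more between fits than the fold changes did. The 120 genes were picked for a log2 fold change beyond 1 in these same libraries, and each fit reuses most or all of them. A fold change that stays beyond 1 is therefore no separate evidence. DESeq2 without shrinkage called 132 genes up and 92 down, and shared 113 of the 120 calls. A fit on the 4 libraries of day 6 alone called 0 genes with 1372 at an unadjusted p under 0.05, although 119 of the 120 genes kept a log2 fold change beyond 1 in the same direction. Leaving out siControl replicate 1, siControl replicate 2, siTead1/4 replicate 1 or siTead1/4 replicate 2 left 27, 43, 24 and 50 genes called up and 25, 24, 11 and 28 called down. In all 4 of these fits, 106 of the 120 genes stayed beyond 1 in the same direction and 23 stayed called. Of the genes described here, Tead4, Fhl1, Nos1, Sim1, Myh2, Arhgap36, Dchs1, Clstn2, Col24a1, Gabrb2, Cadps and Pdgfb were among these 23, and every other gene that is described as called lost its call in at least 1 of the 4 fits.

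**Figure D2:**
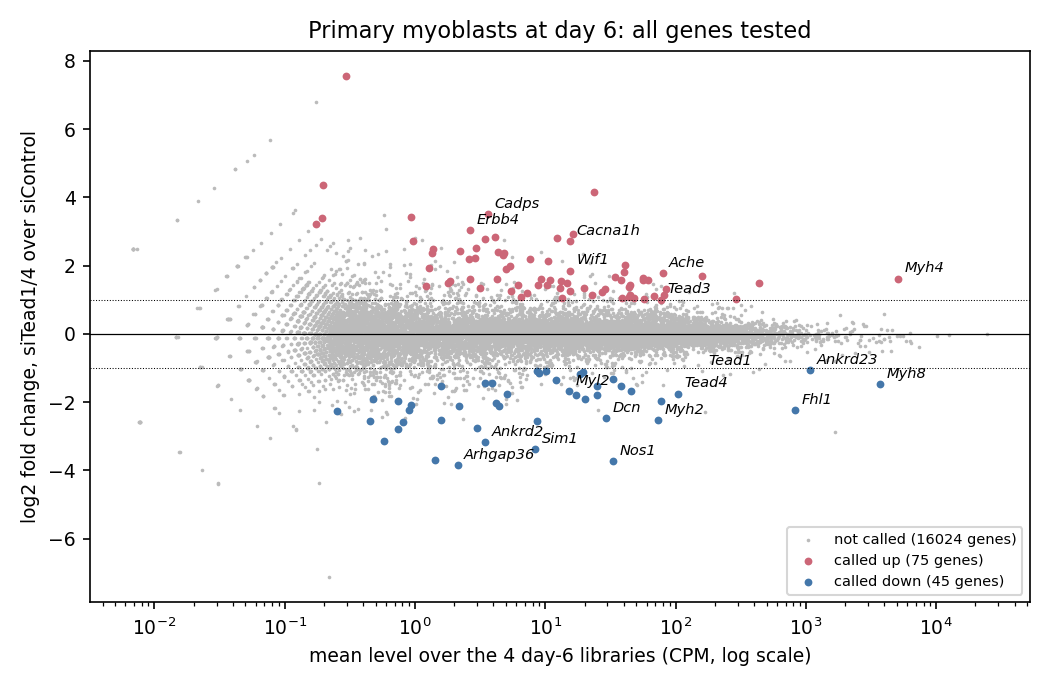
Log2 fold change of siTead1/4 over siControl against the mean CPM of the 4 libraries (log scale) for the 16144 genes tested in PMs at day 6. Red points are the 75 genes called up, blue points the 45 called down, grey points the rest, and dotted lines mark log2 fold changes of 1 and -1.

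The largest falls were seen in genes of several kinds. Nos1, the neuronal nitric oxide synthase that sits beneath the muscle membrane with the dystrophin complex, fell from 43.7 and 79.3 CPM to 2.72 and 6.68 CPM (log2 fold change -3.71, SE 0.44, adjusted p = 0.0043). Sim1, a transcription factor of the bHLH-PAS family, fell from 13.7 and 16.9 CPM to 1.04 and 1.90 CPM, a log2 fold change of -3.38 (SE 0.28, adjusted p = 0.002). Both silenced libraries of these genes were far below both controls. The fall of Arhgap36, a protein with a RhoGAP domain, was from 3.26 and 4.68 CPM to 0.192 and 0.356 CPM (log2 fold change -3.85). Fhl1, a LIM domain protein abundant in muscle, was the most highly expressed of the strong falls. Its level went from 1346 and 1382 CPM to 241 and 337 CPM, and the 2 controls were far closer to each other than to either silenced library (log2 fold change -2.24, SE 0.22, adjusted p = 0.002). The remaining large falls among genes with a group mean of at least 2 CPM were in Cdcp1 (log2 fold change -3.69), a transmembrane protein, and Ankrd2 (-3.16). Kcne1l (-2.76), a potassium channel accessory subunit, Zfp385c (-2.56), Myh2 (-2.52), Lctl (-2.51), Dcn (-2.46) and Sohlh2 (-2.12) followed. Large falls at lower levels, such as that of Syngr3 (-3.15), are left out. Ankrd2, Myh2 and Dcn are described with their groups.

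The largest rises were in genes that stood at low levels in control cells. Cadps, which primes secretory vesicles for release, rose from 0.646 and 0.530 CPM to 8.33 and 5.11 CPM (log2 fold change 3.51, SE 0.39, adjusted p = 0.0039). Erbb4, a receptor of neuregulins, rose from 0.492 and 0.655 CPM to 6.27 and 3.21 CPM, and Clstn2, a membrane protein of the cadherin family, from 3.51 and 4.09 CPM to 32.0 and 25.4 CPM. In each case the lower silenced library was several times the higher control library. The T-type calcium channel gene Cacna1h rose from 5.32 and 2.81 CPM to 36.2 and 17.4 CPM, and the fibrillar collagen gene Col24a1 from 3.66 and 2.50 CPM to 23.7 and 19.7 CPM. The log2 fold changes were 3.04 for Erbb4, 2.92 for Clstn2, 2.72 for Cacna1h and 2.81 for Col24a1. Next came Il12a, a cytokine subunit (log2 fold change 2.83), Galntl2, a glycosyltransferase (2.77), Rprml (2.53) and Slc1a2, a glutamate transporter (2.48). Aldh3b2 (2.43), Gabrb2, a subunit of the GABA-A receptor (2.41), and Ppp2r2c, a regulatory subunit of a protein phosphatase (2.38), complete the 12 largest rises. This set needs a group mean of at least 2 CPM and leaves out unnamed gene models. Larger rises at lower levels, such as those of Vwc2 and Gtsf1, are not in it. Some genes with wide differences between the groups and between replicates were not called. Car3, a muscle carbonic anhydrase singled out after its values were seen, had 30786 and 159505 counts in the control libraries and 3717 and 23875 in the silenced ones (log2 fold change -2.87, SE 1.26, adjusted p = 0.4).

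The myosin heavy chains, the motor proteins that set the contraction speed of a fibre, shifted between isoforms. Myh4, which encodes the IIb chain of the fastest adult fibres, rose from 3022 and 1976 CPM to 9742 and 5618 CPM (log2 fold change 1.62, SE 0.28, adjusted p = 0.024). Myh2, the gene of the IIa chain, fell from 124 and 126 CPM to 15.2 and 28.6 CPM (log2 fold change -2.52, SE 0.32, adjusted p = 0.0062). Myh8, the neonatal chain, fell from 4682 and 6243 CPM to 1569 and 2403 CPM (log2 fold change -1.46, SE 0.20, adjusted p = 0.01). The groups did not overlap for any of these 3 genes, although the 2 silenced libraries of Myh4 lay further apart than the gap between the groups. Replicate 1 of Myh4 was the higher in both groups, and a fit with the replicate number as a term kept all 120 calls. Myh4 lost its call without siTead1/4 replicate 1 (log2 fold change 1.17) and without siControl replicate 2 (1.34), and Myh8 without siTead1/4 replicate 1 (-1.18).

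The other myosin heavy chains were not called. Myh1, the IIx chain, stood at 4137 and 4829 CPM against 2573 and 3800 CPM (log2 fold change -0.49, adjusted p = 0.35), and the embryonic chain Myh3 at 7041 and 9557 CPM against 6205 and 6511 CPM (-0.38, adjusted p = 0.57). The slow chain Myh7 had 89.8 and 146 CPM in siControl and 30.5 and 53.4 CPM in siTead1/4 cells, a log2 fold change of -1.49 that did not pass the test (adjusted p = 0.13). Over the 9 heavy chains tested, the median log2 fold change was -1.21, 7 had both silenced libraries below both controls and 1, Myh4, had both above, against 18.2% and 18.5% of all tested genes.

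Expressed per kilobase of gene length, so that genes can be compared, Myh4 made up 17.1% and 9.39% of the summed heavy chain signal in the siControl libraries and 49.9% and 32.0% in the siTead1/4 libraries. The share of Myh8 was 20.3% and 22.8% in siControl and 6.16% and 10.5% in siTead1/4 cells, and that of Myh3 39.1% and 44.6% against 31.2% and 36.4%. The summed signal itself overlapped between the groups, at 2928 and 3483 CPM per kilobase in control and 3235 and 2908 in silenced cells. The shares did not overlap for any of the 3 genes, but 2 samples against 2 cannot reach a two-sided exact permutation p below 0.333. Myh1, Myh2, Myh4 and Myh8 are near-identical neighbours on chromosome 11, and reads that fit more than 1 of them could be lost or misplaced by the counting.

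The promoters of these neighbours are shown because adjacent genes of 1 cluster moved in opposite directions. They are RefSeq windows of GRCm38.p6, all on the plus strand, written 5′ to 3′, with matches of CATTCC or GGAATG in capitals. The Myh4 window, chr11:67237562-67237861, holds 1 match, 231 bases before the start site, and the windows of Myh2, chr11:67170777-67171076, and Myh8, chr11:67276874-67277173, hold none.
Myh4: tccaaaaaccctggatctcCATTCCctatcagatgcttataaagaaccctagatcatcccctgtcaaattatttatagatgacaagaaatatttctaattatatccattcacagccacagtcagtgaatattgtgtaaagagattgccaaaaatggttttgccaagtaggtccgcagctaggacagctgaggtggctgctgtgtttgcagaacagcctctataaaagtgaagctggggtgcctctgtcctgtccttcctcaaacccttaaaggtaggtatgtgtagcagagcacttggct
Myh2: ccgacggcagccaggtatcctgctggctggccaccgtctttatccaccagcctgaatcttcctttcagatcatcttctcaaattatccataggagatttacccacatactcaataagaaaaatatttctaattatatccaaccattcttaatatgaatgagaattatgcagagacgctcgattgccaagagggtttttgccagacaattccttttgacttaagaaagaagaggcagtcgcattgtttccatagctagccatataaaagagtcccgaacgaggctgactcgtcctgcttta
Myh8: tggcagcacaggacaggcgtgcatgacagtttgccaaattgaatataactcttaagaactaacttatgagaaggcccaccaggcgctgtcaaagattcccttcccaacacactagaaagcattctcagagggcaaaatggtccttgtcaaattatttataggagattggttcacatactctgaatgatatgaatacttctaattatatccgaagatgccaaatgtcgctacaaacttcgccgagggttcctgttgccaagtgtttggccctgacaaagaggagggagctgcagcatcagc

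Among the myosin light chains and their kinases, 1 gene fell and 1 rose of 9 tested (22.2% called, against 0.743% of all tested genes). The ventricular and slow light chain Myl2 fell from 20.3 and 25.9 CPM to 5.55 and 9.02 CPM (log2 fold change -1.67, SE 0.31, adjusted p = 0.035). Mylk3, a myosin light chain kinase, rose from 0.800 and 1.09 CPM to 3.24 and 2.31 CPM (log2 fold change 1.55, adjusted p = 0.05 after rounding, under the threshold). The 6 light chains had a median of -0.66, and 4 of them had both silenced libraries below both controls, as did 18.2% of all tested genes. Myl6b stood at 470 and 601 CPM against 180 and 314 CPM (log2 fold change -1.12) and missed the threshold, at an adjusted p of 0.05 after rounding. The fast light chain Mylpf was the least changed of the 6, from 6041 to 6694 CPM over the 4 libraries.

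Of 13 genes of slow fibres tested, Myl2 and Ankrd2 fell and none rose (15.4% called, against 0.743% of all tested genes). The median log2 fold change was -0.54, 12 of the 13 were negative and 8 had both silenced libraries below both controls, which 18.2% of all tested genes did. Ankrd2, a stretch-responsive ankyrin repeat protein of slow muscle, fell from 5.41 and 6.99 CPM to 0.412 and 0.979 CPM (log2 fold change -3.16, SE 0.50, adjusted p = 0.018). The slow troponin Tnni1 had 3262 and 3956 CPM in siControl and 1906 and 3062 CPM in siTead1/4 cells, and did not pass the test (log2 fold change -0.54, adjusted p = 0.28). Over the 15 genes of fast fibres, Myh4 rose, Myh2 fell and the median was -0.03.

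In the Z-disc and M-band, 3 of 35 genes fell and none rose, with a median log2 fold change of -0.22. The called share was 8.57%, against 0.743% of all tested genes. The genes that fell were Fhl1, Ankrd2 and Ankrd23. Ankrd23, a second muscle ankyrin repeat protein, fell from 1316 and 1608 CPM to 641 and 760 CPM (log2 fold change -1.06, SE 0.18, adjusted p = 0.023). Its RefSeq promoter window, chr1:36535690-36535989 of GRCm38.p6 on the minus strand, holds 1 match of CATTCC, 120 bases before the start site. The next base is C, so the match is not a full MCAT motif. The window is printed as an example of a gene that fell and holds the searched core.
Ankrd23: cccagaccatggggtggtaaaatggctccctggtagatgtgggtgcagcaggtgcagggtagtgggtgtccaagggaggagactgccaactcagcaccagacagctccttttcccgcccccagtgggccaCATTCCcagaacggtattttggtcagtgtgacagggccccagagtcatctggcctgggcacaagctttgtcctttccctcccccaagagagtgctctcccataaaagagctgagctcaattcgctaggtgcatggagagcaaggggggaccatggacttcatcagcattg
Of all 35, 28 had a negative log2 fold change, 16 had both silenced libraries below both controls and 2 had both above, against 18.2% and 18.5% of all tested genes. Most of these differences were small and did not pass the test. Desmin (Des) stood at 6154 and 6476 CPM against 5405 and 5516 CPM, and alpha-actinin (Actn2), the main protein of the Z-disc, at 2012 and 2009 CPM against 1702 and 1676 CPM. No gene of the thin filament was called of 17 tested (median -0.07), and skeletal actin, Acta1, gave a log2 fold change of -0.07.

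**Figure D3:**
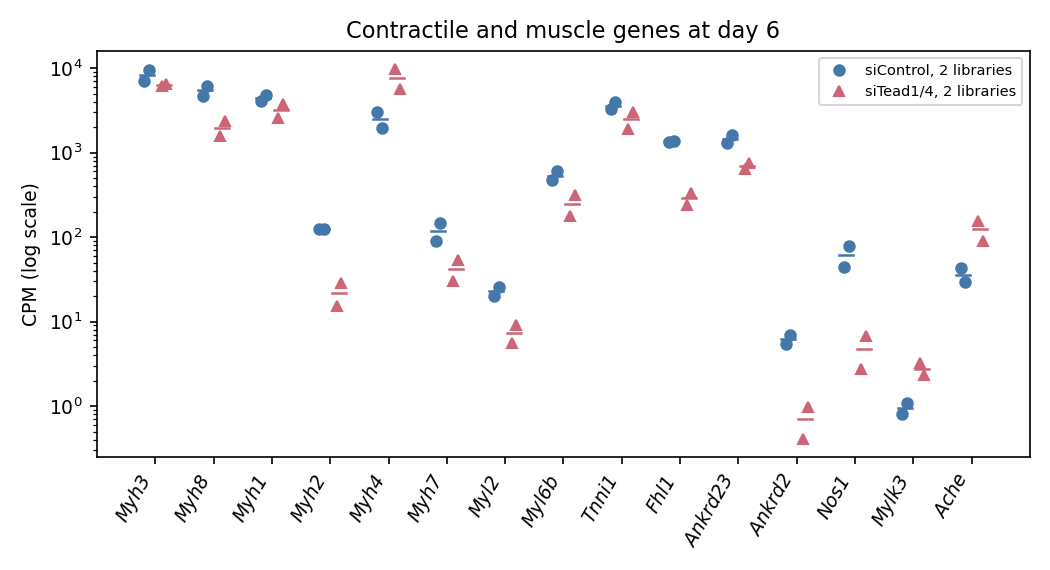
CPM on a log scale of contractile and muscle genes in the 2 siControl (circles) and 2 siTead1/4 (triangles) libraries of PMs at day 6, with the mean of each pair as a bar. Myh2, Myh8, Myl2, Fhl1, Ankrd23, Ankrd2 and Nos1 lie lower after silencing, and Myh4, Mylk3 and Ache lie higher.

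At the muscle membrane, changes were limited to single genes. Nos1 was the 1 gene called of 17 of the dystrophin-glycoprotein complex (5.88%), whose median was 0.11. Over all tested genes 0.743% were called. Ache, the acetylcholinesterase of the neuromuscular junction, rose from 42.8 and 29.4 CPM to 156 and 91.0 CPM (log2 fold change 1.78, SE 0.28, adjusted p = 0.018) and was the 1 gene called of 19 in that group. The receptor subunit Chrna1 overlapped between the groups, with 1456 and 2365 CPM in control and 1810 and 2460 CPM in silenced cells. None of 29 genes of excitation-contraction coupling (median 0.02) or of 25 genes of membrane and fusion (median 0.03) was called. The calcium pump Atp2a1 and the release channel Ryr1 gave log2 fold changes of -0.10 and -0.08. Of 25 muscle ion channels and pumps, Kcne1l fell and none rose, with a median of -0.06.

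The myogenic transcription factors were not called, 0 of 26, with a median log2 fold change of 0.11. Myog stood at 816 and 1109 CPM in siControl and at 874 and 1018 CPM in siTead1/4 cells, and Mef2c at 1766 and 2008 CPM against 1576 and 1724 CPM. Satellite cell genes gave 0 calls of 21 (median 0.11) and cell cycle genes 0 of 57 (median 0.02). Ccnd1, the cyclin that promotes entry into the cell cycle, overlapped between the groups at day 6, with 137 and 70.0 CPM against 149 and 104 CPM, and its log2 fold change of 0.29 did not pass the test (adjusted p = 0.79). The cell cycle inhibitor Cdkn1a was abundant in all 4 libraries, from 2002 to 2683 CPM. Genes of the immediate early response (0 of 20, median 0.16), of atrophy and denervation (0 of 25, median -0.03) and of integrated stress and p53 (0 of 20, median 0.01) were not called either.

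Genes of energy metabolism gave no calls, but most of their small differences had the same sign. Of 64 subunits of oxidative phosphorylation, 60 had a negative log2 fold change, 45 had both silenced libraries below both controls and 0 had both above, around a median of -0.20. The ATP synthase subunit Atp5b measured 2751 and 2729 CPM in control and 2197 and 2342 CPM in silenced cells. In glycolysis and glycogen metabolism, 24 of 28 genes were negative and 18 had both silenced libraries below both controls (median -0.29), with Aldoa at 5554 and 5018 CPM against 3721 and 3797 CPM. Among the 14 enzymes of fat oxidation 12 were negative (median -0.35), and 0 of the 23 genes of fat oxidation and its regulators were called. Creatine and adenylate enzymes were evenly divided, 5 of 10 negative, and Ckm gave a log2 fold change of 0.01. Across all tested genes 8026 of 16144 were negative, and 18.2% had both silenced libraries below both controls. Genes of 1 pathway share cells and libraries, so these counts are not independent observations.

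Secreted factors and their receptors were among the genes called up. Among ligands of the Tgfb and BMP family, Tgfb2 rose from 48.9 and 48.8 CPM to 130 and 111 CPM (log2 fold change 1.30, SE 0.26, adjusted p = 0.045) and Bmp2 from 5.29 and 8.33 CPM to 14.95 and 24.6 CPM (1.54, SE 0.26, adjusted p = 0.023). They were the 2 called of 52 genes of Tgfb, activin and BMP signalling (3.85%), whose median was 0.12. Over all tested genes 0.743% were called. Of 42 genes of Fgf, Pdgf, Vegf, Egf and Hgf signals, 3 rose and 1 fell (9.52% called) around a median of 0.04. Pdgfb, a growth factor for mesenchymal cells, rose from 27.0 and 29.5 CPM to 59.7 and 59.5 CPM, with replicates almost equal within each group (log2 fold change 1.08, SE 0.13, adjusted p = 0.0043). Fgf7 rose from 3.88 and 7.12 CPM to 12.1 and 20.7 CPM and Erbb4 as given above, whereas Egf fell from 11.7 and 13.04 CPM to 6.73 and 4.48 CPM (log2 fold change -1.14, adjusted p = 0.047).

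In the Wnt pathway, Wif1, a secreted inhibitor that binds Wnt ligands, rose from 6.28 and 7.24 CPM to 23.7 and 25.2 CPM (log2 fold change 1.85, SE 0.24, adjusted p = 0.0078) and was the 1 gene called of 49. That is 2.04% of the Wnt list, against 0.743% of all tested genes called. Of the 49, 30 had a positive log2 fold change, around a median of 0.15. Both silenced libraries were above both controls in 22 and below both in 6, against 18.5% and 18.2% of all tested genes. Notch signalling gave 0 calls of 22 (median 0.13) and Igf signalling 0 of 13 (median 0.24). Igf2, the main growth factor of this list, measured 2363 and 2592 CPM in control and 3214 and 2862 CPM in silenced cells (log2 fold change 0.29, adjusted p = 0.63).

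In the lists of genes better known from neurons, the called genes all rose, while genes outside the lists were called in both directions. In axon guidance, 2 of 50 genes were called (4%, against 0.743% of all tested genes), both up, around a median of 0.24. Of the 50, 34 were positive. Both silenced libraries were above both controls in 21 and below both in 6, against 18.5% and 18.2% of all tested genes. Sema3d, a repulsive ligand, rose from 22.1 and 25.6 CPM to 64.6 and 65.2 CPM (log2 fold change 1.45, SE 0.22, adjusted p = 0.016), and the ephrin receptor Ephb1 from 15.4 and 17.2 CPM to 39.5 and 37.1 CPM (1.24, SE 0.18, adjusted p = 0.013). Gfra2, a receptor for neurturin, rose from 3.78 and 2.90 CPM to 9.07 and 9.11 CPM and was the 1 gene called of 10 neurotrophins and receptors. Of 56 neuron-expressed genes tested, Gabrb2 and Slc1a2 rose, none fell and the median was 0.02. Outside these lists, Slc5a7, the choline transporter of cholinergic neurons, fell from 3.44 and 3.59 CPM to 0.824 and 0.801 CPM (log2 fold change -2.11, adjusted p = 0.018). Syngr3, a synaptic vesicle protein (-3.15), and Adcyap1r1, a neuropeptide receptor (-1.35), fell as well. These falls were picked after their values were seen, and Cadps and Clstn2, also outside the lists, rose as given above. The 13 markers of neurons summed to 23.7 and 40.7 CPM in control and 46.7 and 54.6 CPM in silenced libraries, with Rbfox3 and Gad1 at 0 in all 4 and 0 of 8 tested markers called. Dcx alone, at 4.52 and 8.33 CPM in control and 32.2 and 32.4 CPM in silenced libraries, carried the higher sum (log2 fold change 2.33, adjusted p = 0.13), since 6 of the 8 were negative and their median was -0.34.

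Matrix genes were called in both directions. Dcn and Lum encode decorin and lumican, small proteoglycans that coat collagen fibrils, and they were the 2 called of 58 in the list of collagen and matrix genes, whose median was 0.04. These 2 are 3.45% of the list, against 0.743% of all tested genes called. Col24a1, described above, and Fras1, a basement membrane protein, rose and are not in that list. Fras1 went from 22.9 and 25.9 CPM to 70.2 and 57.4 CPM (log2 fold change 1.39, SE 0.20, adjusted p = 0.012). Dcn fell from 61.2 and 38.5 CPM to 7.97 and 10.2 CPM (log2 fold change -2.46, SE 0.39, adjusted p = 0.018) and Lum from 1.63 and 0.967 CPM to 0.165 and 0.208 CPM (-2.79, SE 0.50, adjusted p = 0.029). Both are also markers of fibroblasts. The 14 fibroblast markers summed to 3748 and 2758 CPM in control and to 3218 and 2538 CPM in silenced libraries, which overlapped. Their median log2 fold change was -0.22, and 10 of the 14 were negative. Dcn and Lum were the 2 of them called, both down. Whether these genes came from fewer such cells or from less RNA per cell cannot be told apart in bulk libraries. Macrophage and adipocyte markers were scarce, at 4.98 to 6.65 and 25.2 to 60.2 CPM in sum, with Mrc1 called up and Plin4 called down. None of the 12 endothelial, 10 Schwann cell or 11 smooth muscle and pericyte markers tested was called. The part of other cell types in the calls was not tested. Il12a was the 1 gene called of 28 chemokines and cytokines (median 0.02), rising from 0.769 and 1.25 CPM to 6.65 and 7.78 CPM.

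Interferon response genes had the second lowest median of the 35 lists, and none was called. Of 32 tested, 28 had a negative log2 fold change, 25 had both silenced libraries below both controls and 0 had both above, with a median of -0.84. Over all tested genes 8026 of 16144 were negative, 18.2% had both silenced libraries below and 18.5% both above. Ifit1, an antiviral effector, measured 5.08 and 5.34 CPM in control and 1.59 and 1.25 CPM in silenced cells, yet its log2 fold change of -1.87 had an SE of 1.07 (adjusted p = 0.57). Isg15, a ubiquitin-like interferon product, stood at 7.04 and 11.5 CPM against 4.18 and 4.01 CPM. The spread behind each SE was estimated over the PM libraries of all 3 days. The summed level of the list was 264 and 703 CPM in the 2 siControl libraries of day 3, against 390 and 449 CPM in those of day 6. In C2C12 cells at day 6 the median of the list was 0.13. The upstream factor Irf3 was not called, with a log2 fold change of 0.10.

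**Figure D4:**
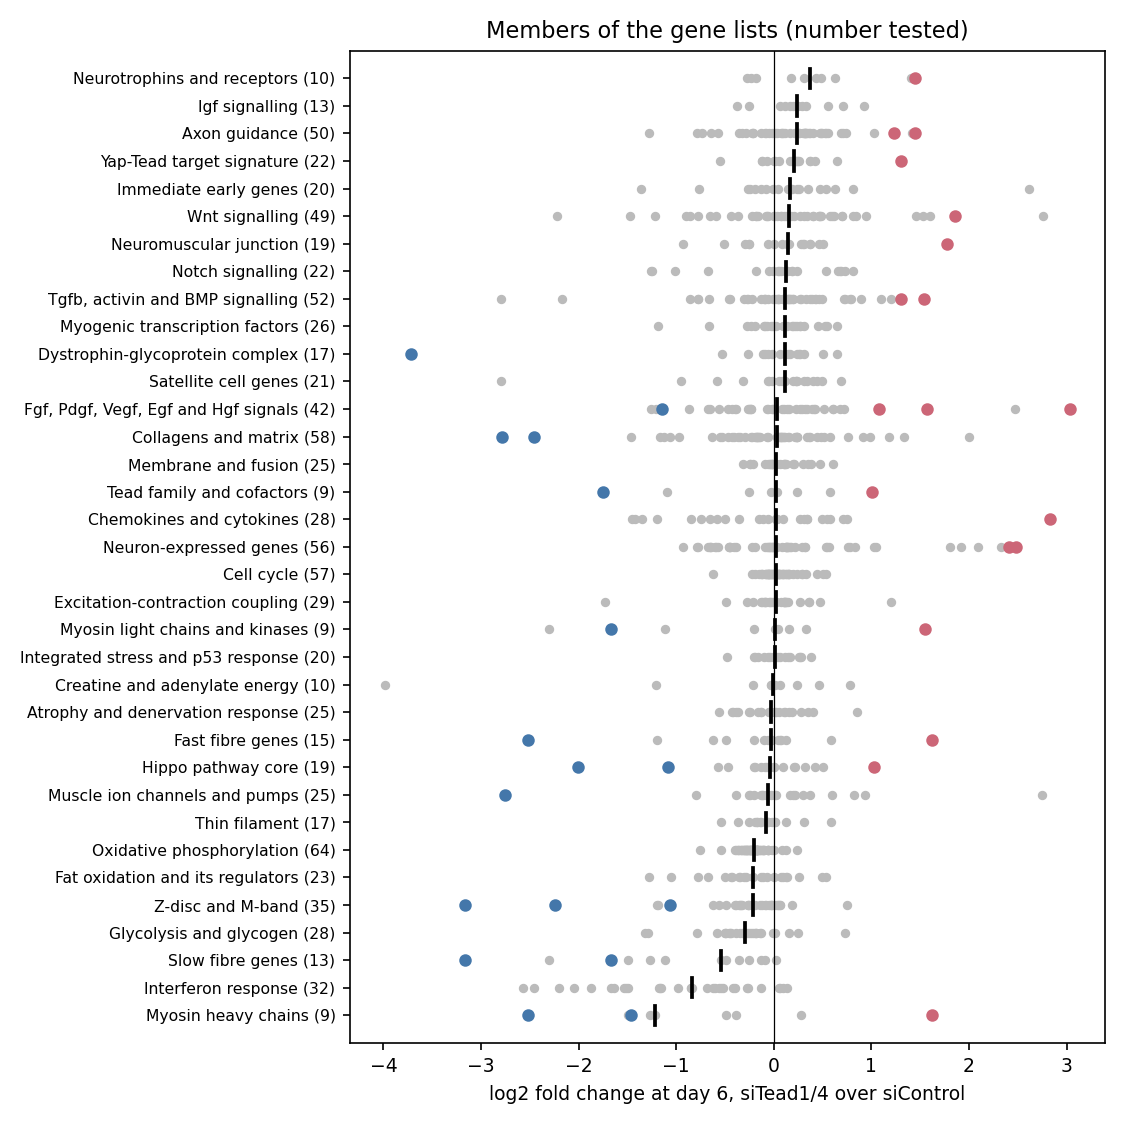
Log2 fold change of siTead1/4 over siControl in PMs at day 6 for each tested member (points) of 35 gene lists, sorted by their median (black bars). Red and blue points are genes called up and down. The lowest medians are those of the myosin heavy chains (-1.21), interferon response genes (-0.84) and slow fibre genes (-0.54).

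Genes tied to the Hippo pathway and to Yap gave few calls. Of 22 genes of a Yap-Tead target signature, Tgfb2 was called up and none down, with a median of 0.21. The called share was 4.55% there and 15.8% in the Hippo list below, against 0.743% of all tested genes. Ctgf, the most used reporter of Yap and Tead activity, overlapped between the groups with 451 and 348 CPM against 471 and 359 CPM. Of 19 Hippo genes, none of the 7 kinases and their partners was called, and among the upstream regulators Jub, a LIM protein that restrains the Lats kinases, rose from 39.3 and 36.1 CPM to 87.0 and 66.9 CPM (log2 fold change 1.03, adjusted p = 0.021). Dchs1, an atypical cadherin, fell from 6.18 and 7.33 CPM to 2.09 and 1.25 CPM (-2.01, SE 0.24, adjusted p = 0.0043), and Wwc1, which encodes Kibra, from 10.6 and 13.01 CPM to 5.33 and 5.76 CPM (-1.09, SE 0.18, adjusted p = 0.021). In all, 31 of the 120 called genes stood in at least 1 of the 35 lists, 17 up and 14 down, and 89 stood in none. The lists held 909 of the 16144 genes tested.

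The effect of silencing at day 6 was compared with that at day 3. At day 3, 339 genes were called up (2.1%) and 193 down (1.2%) in the same fit. Of the day 6 calls, 62 of the 75 up (82.7%) and 29 of the 45 down (64.4%) were also called in that direction at day 3, which is 18.3% and 15% of the day 3 calls, and 0 genes were called in opposite directions. The 2 days share no library. Myh4, Ache, Wif1, Fhl1, Myh2, Myh8 and Nos1 belong to the genes called on both days. The Myh1 gene was called down at day 3, when it stood at 7185 and 6838 CPM in control and 1390 and 1396 CPM in silenced cells (log2 fold change -2.33), but was not called at day 6. Between these days its level rose in silenced cells, to 2573 and 3800 CPM (log2 fold change 1.19, adjusted p = 0.0091 by edgeR), while the difference in control cells, to 4137 and 4829 CPM, did not pass the test (-0.65, adjusted p = 0.086).

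The difference between the effects was tested as an interaction. The edgeR test called 0 genes (0%), with 733 at an unadjusted p under 0.05, while DESeq2 without shrinkage called 25. The lowest adjusted p of the edgeR test, 0.18, was shared by Myh1 (difference of log2 fold changes, day 6 minus day 3, 1.84), Sim1 (-2.68) and Arhgap36 (-3.64), among others, and DESeq2 without shrinkage gave these 3 genes adjusted p-values of 8.4e-07, 8.4e-07 and 0.00043. With the replicate number as a term in the edgeR fit, Myh1 (1.83) and Sim1 (-2.69) were called, both at an adjusted p of 0.04, and Arhgap36 was not (-3.66, adjusted p = 0.062). Sim1 rose in control cells from 4.03 and 3.76 CPM at day 3 to 13.7 and 16.9 CPM at day 6, and went from 2.37 and 2.44 to 1.04 and 1.90 CPM in silenced cells. Arhgap36 rose in control cells from 1.35 and 1.60 to 3.26 and 4.68 CPM and went from 1.44 and 1.11 to 0.192 and 0.356 CPM after silencing. Fhl1 and Nos1 also rose in control cells between these days, Fhl1 from 320 and 305 CPM and Nos1 from 11.7 and 17.4 CPM, and were called at both. In silenced cells Fhl1 rose as well, from 66.0 and 64.6 CPM to 241 and 337 CPM. Its log2 fold change from day 3 to day 6 was 2.15 there and 2.12 in control cells. The differences in the effect of silencing between the days, -1.28 for Nos1 (SE 0.59) and 0.02 for Fhl1, were not called. Of the 120 day 6 calls, 13 up and 16 down were not called at day 3. Ccnd1 shows the reverse, with a log2 fold change of 1.09 that was called at day 3 and 0.29 at day 6, a difference of -0.81 that did not pass the edgeR test (adjusted p = 1).

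**Figure D5:**
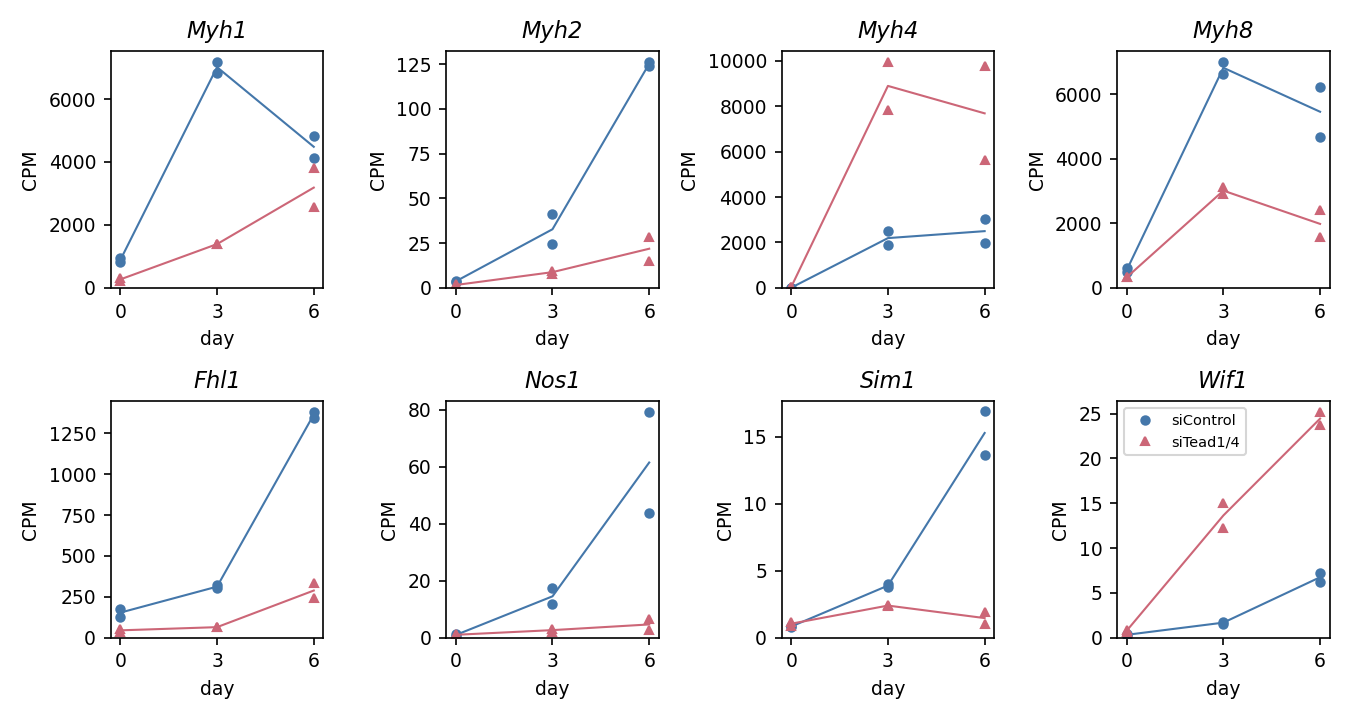
CPM of 8 genes in PMs at days 0, 3 and 6 in siControl (circles) and siTead1/4 (triangles) cells, with each of 2 libraries as a point and lines through the means. The Myh1 control libraries stand at 7185 and 6838 CPM at day 3 and at 4137 and 4829 CPM at day 6. Sim1, Nos1, Myh2 and Fhl1 rise late in control cells and are lower after silencing at day 6. Myh2 and Fhl1 also rise from day 3 to day 6 in silenced cells (log2 fold changes 1.31 and 2.15).

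In C2C12 cells at day 6, 2 genes were called up and 5 down in a fit of their own with 15303 genes tested. The silenced genes were not called by the edgeR test there. Tead4 gave a log2 fold change of -1.28 (adjusted p = 0.32) and Tead1 -0.52 (adjusted p = 0.95). The log2 difference between the 2 silenced libraries had an SD over genes of 0.628 in C2C12 cells and 0.504 in PMs. Of the genes called up in PMs, 62 were tested in C2C12 cells, where 50 had a positive log2 fold change, with a median of 0.58. Of those called down in PMs, 26 of 36 tested were negative in C2C12 cells, with a median of -0.59. Over all genes tested in both the PM and the C2C12 fit, the median in C2C12 cells was 0.01 and 51.5% were positive. A difference between the cell types was tested directly with all 24 libraries and 16926 genes, and 6 genes were called (0.0354%), with 916 at an unadjusted p under 0.05. The levels given next are CPM scaled over all 24 libraries and differ slightly from those above.

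Fxyd6, a regulator of the sodium pump, was not called in PMs, at 538 and 682 CPM in control and 638 and 779 CPM in silenced cells, and fell in C2C12 cells from 70.7 and 68.6 CPM to 1.30 and 2.75 CPM. The difference between the effects was 5.30 on the log2 scale (SE 0.61, adjusted p = 0.0024). Myl2 fell in both, from 21.4 and 27.1 to 5.83 and 9.43 CPM in PMs and from 41.9 and 28.8 to 0.115 and 0.621 CPM in C2C12 cells, and the fall was the smaller in PMs by 4.84 (SE 0.67, adjusted p = 0.018). Nos1 was the 1 gene whose effect was more negative in PMs, by 5.24 (SE 0.87, adjusted p = 0.043). Its levels were 46.0 and 82.9 CPM against 2.86 and 6.98 CPM in PMs and 25.7 and 16.8 CPM against 97.1 and 25.3 CPM in C2C12 cells, where the silenced libraries were far apart. Tceal5, Cyp26b1, a retinoic acid hydroxylase, and the gene model 9530026P05Rik gave differences of 2.12, 3.99 and 4.30. Leaving out 1 library at a time left between 1 and 21 genes called for this difference, and Fxyd6 was the 1 of the 6 that stayed called in each of these fits.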

How the data were processed

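RNA-seq libraries were prepared from poly(A) RNA without strand information, and reads from a gene and from an overlapping antisense gene cannot be told apart. The authors mapped reads to mm9, and the submitters' notes name CASAVA 1.8.2, TopHat2 2.0.10, Bowtie2 2.1.0, HTSeq 0.6.1 and DESeq2 1.8.1. The deposited table lists 28109 genes with raw counts of reads for every library, with gene length, start and end. Its 36 columns for 12 further libraries, absent from the sample list, were not used, nor were the authors' normalized values.

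Counts of the 12 PM libraries were filtered with filterByExpr (16144 genes kept), scaled with TMM and fitted with 1 mean for each of 6 groups by the quasi-likelihood method of edgeR 4.0.16 (R 4.3.3, limma 3.58.1), with p-values adjusted by the Benjamini-Hochberg method over all genes tested. Calls needed an adjusted p below 0.05 together with a log2 fold change beyond 1, the cut-offs of the study. Differences between effects were tested as interactions, those between cell types with all 24 libraries. Alternatives were DESeq2 1.42.0, other scaling, filters, a replicate block, other sets of libraries and leaving out each library. On simulated data with changes of 2 on the log2 scale, the day 6 fit recovered 165 of 199 changed genes with 4 false calls among 16144 genes. The interaction fits recovered 142 of 195 between days and 120 of 198 between cell types, with 7 false calls each. Smaller changes were not simulated, nor were deviations shared by same-numbered libraries, so recovery of changes nearer the cut-off is not known. Totals per PM library at day 6 were 33856925 to 37432517 counts.

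The members and the gene lists were chosen with earlier results of these data known, so list counts are descriptions and no list was tested. Genes are named by a rule: the Tead family and its cofactors, the 12 largest rises and falls among called genes with a group mean of at least 2 CPM that are not unnamed gene models, up to 4 called members per list and direction (otherwise up to 2 of its most abundant members), genes called for a difference between effects, and genes the study measured by RT-qPCR. Other genes named were chosen after their values were seen, among them Vwc2, Car3, Mylpf, Myl6b, Des, Actn2, Fras1, Slc5a7, Syngr3, Adcyap1r1, Dcx, Ifit1, Isg15, Mrc1 and Plin4. Promoter windows are from RefSeq (GRCm38.p6) and were matched by gene identifier, symbol or synonym.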

Additional observations from a re-analysis of the deposited data

Results flagged for a closer look

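For 6 genes the effect of silencing at day 6 differed between PMs and C2C12 cells by the edgeR interaction test. The differences, effect in PMs minus effect in C2C12 cells on the log2 scale, were 5.30 for Fxyd6, 4.84 for Myl2, 4.30 for 9530026P05Rik, 3.99 for Cyp26b1, 2.12 for Tceal5 and -5.24 for Nos1. In PMs Fxyd6 gave a log2 fold change of 0.22, Cyp26b1 0.93, Tceal5 0.70 and 9530026P05Rik 1.47, none of them called, and in C2C12 cells these 4 genes gave -5.08, -3.06, -1.42 and -2.83. Cyp26b1 stood at 1.07 and 1.27 CPM in PM control cells and at 22.6 and 27.0 CPM in C2C12 control cells, scaled over all 24 libraries. The PMs come from C57BL/6 mice and the C2C12 line from another strain, so cell type and strain cannot be told apart. At day 6 Tead4 gave a log2 fold change of -1.75 in PMs and -1.28 in C2C12 cells, and Tead1 gave -1.10 and -0.52. The part of the degree of silencing in these differences was not tested.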

How the results depend on the processing

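The counts of calls at day 6 moved with the settings. DESeq2 without shrinkage gave 132 genes up and 92 down, DESeq2 with shrinkage 130 and 88, no filter on low counts 193 and 142, all 24 libraries in the fit 43 and 17, and the 4 libraries of day 6 alone 0 and 0. DESeq2 size factors and a minimum of 10 counts in every library kept both counts within 1.5 times. Leaving out 1 library gave 24 to 50 genes up (27 without siControl replicate 1, 24 without siTead1/4 replicate 1, 43 without siControl replicate 2) and 11 to 28 down (25, 11 and 24 in that order, and 28 without siTead1/4 replicate 2). The genes called for a different effect at day 3 numbered 25 and 24 with DESeq2 without and with shrinkage, 46 without a filter and 0 in each fit that left out 1 library. Those called for a different effect in C2C12 cells numbered 60 and 62 with DESeq2, 146 without a filter, 0 with at least 10 counts in every library (Fxyd6, Myl2, Tceal5 and 9530026P05Rik are then not tested) and 1 to 21 when 1 library was left out, the highest without C2C12 siTead1/4 replicate 2 and the lowest without C2C12 siControl replicate 1. The cause was not tested.

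A replicate block, a fit with the replicate number as a term, gave 170 genes up and 120 down, all 120 day 6 calls among them, 3 genes for the difference between days, Myh1 and Sim1 among them, and 34 for that between cell types. The labels do not say that a number marks a shared batch. Deviations of same-numbered PM libraries from their group means correlated at 0.069 to 0.539 over 15 pairs of groups, 14 of them over 0.1, with 0.539 at day 6. This is a hint from the data that same-numbered libraries belong together, but each group has 2 libraries and the labels do not state it, so the fit without the block is the one reported.

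Of the single-gene log2 fold changes recomputed for the 93 genes of the naming rule, 899 kept direction and call, 163 lost the call, 8 gained it and 30 changed sign, all 30 in genes that were not called and in fits that left out 1 library. The ranges over the 4 fits that left out 1 library were, on the log2 scale, Atp2a1 -0.29 to 0.065, Casq1 -0.17 to 0.11, Cav3 -0.75 to 0.14, Ccnd1 -0.12 to 0.85, Ccnd3 -0.081 to 0.45, Cdh15 -0.59 to 0.034, Chrna1 -0.15 to 0.55, Ckm -0.24 to 0.29, Ctgf -0.15 to 0.26, Egr1 -0.003 to 0.52, Hes6 -0.41 to 0.72, Irf3 -0.034 to 0.24, Itga7 -0.15 to 0.036, Itgb1 -0.062 to 0.10, Jag2 -0.071 to 0.38, Junb -0.14 to 0.62, Myog -0.23 to 0.21, Ryr1 -0.31 to 0.11, Vgll3 -0.077 to 0.02, Wwtr1 -0.056 to 0.12. Over the 35 lists, 288 recomputed counts of called members stayed within 1.5 times and 132 did not. Depth limits the lowest genes. Of the called genes, 4 up and 1 down had at most 3 counts in each library of the lower group, and their fitted fold changes depend on the prior count and are no bounds.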
